A study of Mus musculus with 6 samples.

Results

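The NF-κB family has 5 genes in the mouse, *Rela*, *Relb*, *Rel*, *Nfkb1* and *Nfkb2*, and their mRNA was followed here in bone marrow–derived macrophages (BMDMs) stimulated through TLR4 with or without an inhibitor of the deubiquitinase USP7. They were chosen by name, as every spot on the array that was not a control and carried 1 of the 5 gene symbols. This gave 5 of 34787 gene names, 8 of 55681 probes and 9 of 59305 spots on each array. *Rela*, *Rel* and *Nfkb2* had 1 probe each, *Nfkb1* had 2 and *Relb* had 3.

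NF-κB acts as a dimer of these subunits. RelA (p65), RelB and c-Rel carry a transactivation domain, whereas *Nfkb1* and *Nfkb2* encode the precursors p105 and p100, which are processed to the DNA-binding subunits p50 and p52. In resting macrophages most dimers are held in the cytoplasm by IκB proteins, and TLR4 signaling through the IKK complex releases them. Several subunit and IκB genes are themselves known targets of NF-κB, and USP7 is known to remove ubiquitin from p65. The arrays measure mRNA and not subunit protein or its ubiquitination.

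The cells came from wild-type female C57/B6 mice, 6 to 8 weeks old by the labels, and were differentiated for 7 days in L929-conditioned medium. The paper's methods state an older age and write the strain as C57BL6/J. The untreated group received no LPS. The LPS group was stimulated with LPS for 4 h, and the LPS+USP7i group received a small molecule inhibitor of USP7 (10 µM) 30 min before the same stimulation. The LPS dose is 100 ng/ml in the description of the series and 100 ng/µl in the treatment protocol of the samples, and a solvent control is mentioned in neither. Each group had 2 arrays, which the description of the series traces to independent experiments. All arrays lay on 1 slide, with untreated cells in position 1 along it, LPS in position 2 and LPS+USP7i in position 4, so that position and treatment cannot be told apart.

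The macrophage identity of the cells was checked first. All 7 macrophage markers examined, among them *Adgre1*, *Csf1r*, *Cd68* and *Lyz2*, were well above background on all 6 arrays. Their normalized signal summed to 677000 and 663519 (untreated), 550028 and 567169 (LPS) and 563213 and 508767 (LPS+USP7i), and pooled over the arrays 35.9% of it came from the *Csf1r* probe. With LPS *Itgam* had a log2 difference of −0.66 (adjusted p = 0.0233) that did not pass with 75th percentile scaling or without either untreated array or either LPS array. With the inhibitor *Fcgr1*, which encodes an Fc receptor, had a difference of −1.60 (adjusted p = 0.0317), and against untreated cells of −1.26 (adjusted p = 0.0374). Neither passed in a fit without 1 array or in the fit of 2 groups.

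Markers of other cells were also present. The 5 neutrophil markers were well above background on all 6 arrays, and they summed to 5192 and 6794 (untreated), 5747 and 11093 (LPS) and 6157 and 9424 (LPS+USP7i). The groups overlapped. *S100a8*, *S100a9* and *Elane* were higher in replicate 2 than in replicate 1 of every group, and *Ly6g* and *Mpo* were lower. The 3 dendritic cell markers summed to 27 and 37 (untreated), 93 and 121 (LPS) and 75 and 86 (LPS+USP7i). Of these *Zbtb46* was well above background on 4 arrays. It read 3.93 and 3.95 (untreated), 6.29 and 6.59 (LPS) and 5.94 and 6.24 (LPS+USP7i) on the log2 scale. The untreated values lay near those of the dimmest spots well above background on these arrays (3.87 and 3.95). Its log2 difference, which rests on that level, was 2.50 with LPS (adjusted p = 0.00435) and 2.14 in LPS+USP7i against untreated cells (adjusted p = 0.00806). These values were 1.73 and 1.31 in the deposited values and 0.90 and 0.65 with normexp, and the call against untreated cells was lost without either untreated array. *Flt3* and *Cd209a* were well above background on 0 arrays. The sums lay between 579 and 762 for 3 T cell markers, between 47 and 89 for 3 mast cell markers and between 26 and 30 for 3 fibroblast markers. The T cell sum was highest with LPS+USP7i, but pooled over the arrays 97.1% of it came from the *Cd3e* probe. The difference of *Cd3e* with the inhibitor was 0.23 and did not pass (adjusted p = 0.519). *Cd3d* was well above background on 1 array and *Cd3g* on 0. *Col1a1* and *Pdgfra* were well above background on 0 arrays. The part of these cells in the subunit values was not tested.

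*Rela*, which encodes p65, was measured by a probe at chr19:5648070-5648129 (mm9, the build of the array annotation). On the log2 scale it read 14.75 and 14.70 (untreated), 15.73 and 15.69 (LPS) and 15.14 and 15.19 (LPS+USP7i). The LPS arrays were the highest, the untreated arrays the lowest, and no 2 groups overlapped. The processed signal of this spot before normalization reached 61717 over a local background of 59 on LPS replicate 2, and 0 spots on any array were marked as saturated.

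*Rel*, which encodes c-Rel, had the dimmest probe of the family, annotated to chr11:23641729-23641743, a stretch of 15 bases where 6 of the 8 probes are annotated to 60. The log2 values were 2.22 and 1.99 (untreated), 6.03 and 6.30 (LPS) and 4.97 and 5.13 (LPS+USP7i). The spot was well above background on 0 of the 2 untreated arrays and on both arrays of the other groups, with a processed signal of 4 and 4, 52 and 76, and 29 and 33. The groups did not overlap, but the untreated level is that of an undetected transcript. A fold over it is given as a lower bound, and log2 differences and ratios that use it depend on the processing.

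*Relb* encodes RelB, the partner of p52 in the non-canonical pathway, and its 3 probes did not behave alike. Probe 1, the brightest, lies at chr7:20191722-20191781 and read 11.19 and 11.10 (untreated), 13.25 and 13.41 (LPS) and 12.77 and 12.93 (LPS+USP7i) on the log2 scale. Probe 2 at chr7:20191773-20191832 shares 9 bases with it and read 10.31 and 10.17, then 12.50 and 12.56, then 12.01 and 12.12. These overlapping probes gave the same order of groups, with LPS highest and untreated lowest, and no overlap between groups. Probe 3, designed to the transcript ENSMUST00000108452 and 11276 bases from probe 1 at chr7:20203058-20203117, read 7.63 and 7.42, then 7.79 and 7.78, then 7.94 and 7.86. It was well above background on every array, yet its values spanned a narrow range and were highest with LPS+USP7i.

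The precursor genes followed the same order of groups. *Nfkb1* probe 1 at chr3:135254550-135254609 read 9.58 and 9.54 (untreated), 12.72 and 12.71 (LPS) and 11.14 and 11.38 (LPS+USP7i). Probe 2, 6869 bases away at chr3:135247621-135247680 and printed as 2 spots, read 8.33 and 8.11, then 11.32 and 11.36, then 9.54 and 10.18. On both probes the LPS arrays were nearly identical, the inhibitor arrays lay between them and the untreated arrays, and inhibitor replicate 2 was the higher. The 2 spots of probe 2 differed by at most 0.13 on the log2 scale on any array, less than the difference between the inhibitor replicates. *Nfkb2*, whose probe is annotated to chr19:46386146-46386285, read 11.02 and 10.73 (untreated), 14.50 and 14.22 (LPS) and 12.92 and 12.92 (LPS+USP7i), again without overlap.

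**Figure D1:**
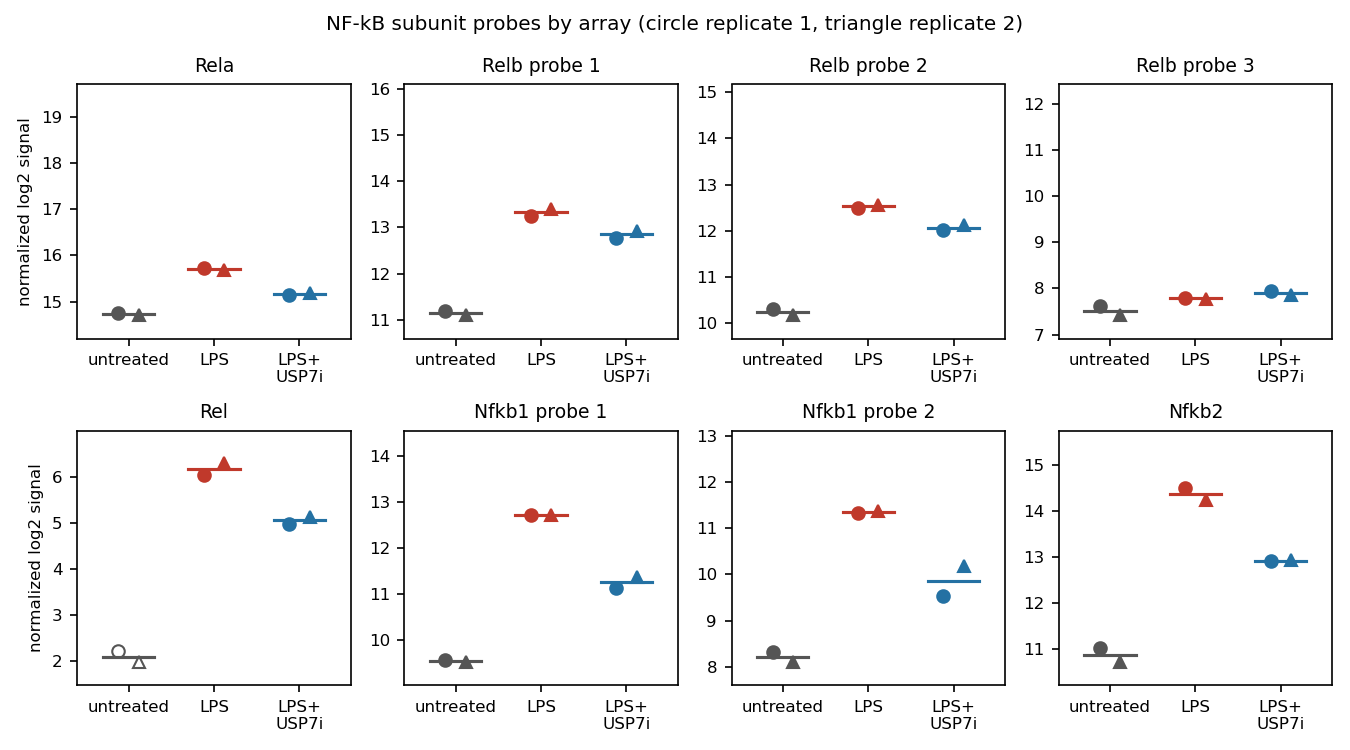
Normalized log2 signal (y axis) of each of the 8 subunit probes on the 6 arrays (x axis, by group). Circles are replicate 1, triangles replicate 2, lines are group means, open symbols mark groups not well above background, and every panel spans the same log2 range. The LPS arrays lie highest on 7 of the 8 probes, while *Relb* probe 3 stays between 7.42 and 7.94.

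Because κB sites are the sequences that the dimers themselves bind, the promoters of the subunit genes were read from RefSeq (GRCm38.p6). Windows of 300 bases, 250 before and 50 after a transcription start, were matched for 3 of the 5 genes, *Rela* (1 window), *Rel* (1 window) and *Nfkb2* (3 windows), and not for *Relb* and *Nfkb1*. The 250 bases before the start are shown 5′ to 3′ for *Rela* (chr19:5637291-5637540, plus strand), *Rel* (chr11:23770970-23771219, minus strand) and *Nfkb2* windows 1 and 2 (chr19:46304487-46304736 and chr19:46305445-46305694, plus strand). Capitals mark matches to the κB consensus on either strand.
Rela: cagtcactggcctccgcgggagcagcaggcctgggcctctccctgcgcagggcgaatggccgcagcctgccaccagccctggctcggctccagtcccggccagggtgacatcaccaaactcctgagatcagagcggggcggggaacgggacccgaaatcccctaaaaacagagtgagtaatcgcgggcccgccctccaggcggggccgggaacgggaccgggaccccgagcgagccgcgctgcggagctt
Rel: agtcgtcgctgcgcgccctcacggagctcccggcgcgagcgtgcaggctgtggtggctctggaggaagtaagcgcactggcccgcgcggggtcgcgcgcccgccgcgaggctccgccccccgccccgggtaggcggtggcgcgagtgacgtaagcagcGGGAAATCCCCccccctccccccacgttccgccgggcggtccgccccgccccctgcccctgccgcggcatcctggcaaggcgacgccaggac
Nfkb2 window 1: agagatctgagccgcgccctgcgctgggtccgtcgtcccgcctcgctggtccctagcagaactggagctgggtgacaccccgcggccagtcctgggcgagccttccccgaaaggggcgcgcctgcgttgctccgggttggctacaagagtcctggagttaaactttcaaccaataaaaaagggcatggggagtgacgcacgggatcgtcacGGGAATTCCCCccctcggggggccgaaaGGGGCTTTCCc
Nfkb2 window 2: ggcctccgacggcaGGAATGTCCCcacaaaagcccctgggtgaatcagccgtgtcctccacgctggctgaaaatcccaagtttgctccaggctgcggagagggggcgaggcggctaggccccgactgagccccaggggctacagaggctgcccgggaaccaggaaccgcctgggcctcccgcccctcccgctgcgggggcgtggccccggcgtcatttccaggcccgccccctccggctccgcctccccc

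The κB consensus matched in the *Rel* window and in all 3 *Nfkb2* windows, and in 0 windows of *Rela*. In *Rel* the match GGGAAATCCC began at position −92 from the first transcribed base and overlapped a match on the opposite strand that began at −91. *Nfkb2* window 1 held GGGAATTCCC from −39, again overlapped by a match on the opposite strand, and GGGGCTTTCC from −11. Window 2 held GGAATGTCCC from −236, letters of the strand shown whose complement is the match, and GGGACTTTCC from position 10 after the start, the same stretch that lies at −225 in window 3. Of all 32851 windows of this length, 2779 (8.46%) held a match. With 1 mismatch allowed at the purine or pyrimidine positions *Rela* matched too, from −218, but so did 27.7% of all windows.

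Other motifs were searched in the same way. The GC box GGGCGG was found in the *Rela* and *Rel* windows and in 2 *Nfkb2* windows, and in 35.7% of all windows. The AP-1 motif TGANTCA was found in *Nfkb2* window 2 alone among these windows, from −210, and in 7.81% of all windows. The core of the interferon-stimulated response element was found in 0 of the 5 windows and in 3.44% of all windows. A match describes letters in a window and not a bound site.

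**Figure D2:**
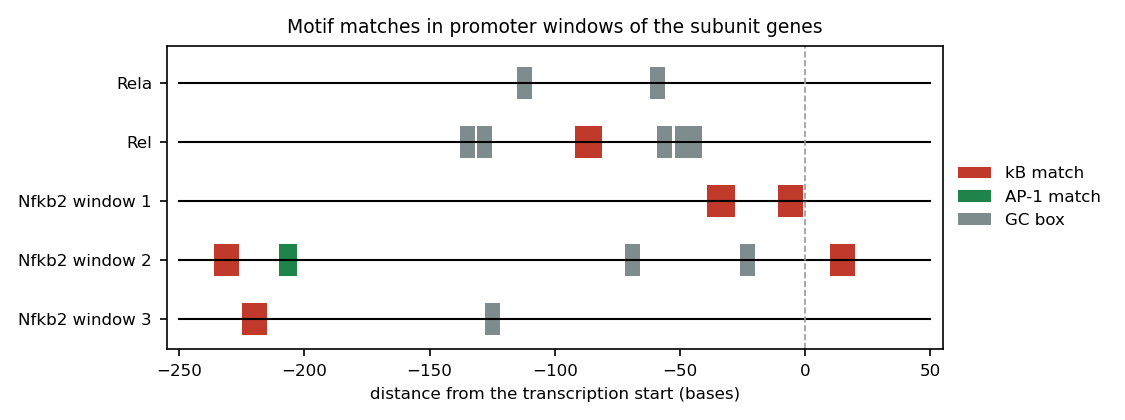
Motif matches in the 5 promoter windows of *Rela*, *Rel* and *Nfkb2*, by distance from the transcription start in bases (x axis), with κB matches in red, the AP-1 match in green and GC boxes in gray. κB matches begin at −92 in *Rel* and at −39 and −11 in *Nfkb2* window 1, and no red bar falls in the *Rela* window.

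The first comparison asked how LPS changed subunit expression. *Nfkb2* rose 11.2-fold with LPS, *Nfkb1* rose 8.91-fold, *Relb* rose 4.54-fold and *Rela* rose 1.98-fold, and *Rel* was at least 4.76-fold higher in the quantile-normalized values, taking its untreated signal as that of the dimmest spot well above background. The bound holds for these values alone. A gene was called when its adjusted p was under 0.05 over all 55680 probes tested (limma), with the brightest probe standing for the gene. By this rule 5 of the 5 subunit genes were higher with LPS, where 7.98% of all 34786 genes tested (2775) were. That background was 12092 genes with 75th percentile scaling, 1380 without untreated replicate 1 and 1140 without untreated replicate 2. In a bulk sample fewer cells of a type and less RNA per cell cannot be told apart.

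On the log2 scale the difference was 3.49 for *Nfkb2* (SE 0.15, adjusted p = 0.00304), 3.16 for *Nfkb1* (SE 0.10, adjusted p = 0.00253) and 2.18 for *Relb* (SE 0.10, adjusted p = 0.00321). It was 0.99 for *Rela* (SE 0.06, adjusted p = 0.00423), the same in both replicates taken by number. Among 15612 genes well above background on every array, 211 had a higher difference than *Nfkb2*, 268 than *Nfkb1*, 541 than *Relb* and 1706 than *Rela*. The fitted difference of *Rel* was 4.06 (adjusted p = 0.00267), but it rests on the untreated level and was 2.01 in the authors' deposited values and 0.95 with normexp background correction and an offset of 50. With 75th percentile scaling, which moved the median of all genes by 0.40, the difference of *Rela* was 1.56.

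The second comparison asked how the USP7 inhibitor changed subunit expression under LPS. It uses the same LPS arrays as the first. *Nfkb1* was 2.74-fold lower with the inhibitor, *Nfkb2* 2.71-fold, *Rel* 2.16-fold and *Rela* 1.46-fold, and *Relb*, at 1.40-fold, did not pass the test. Thus 4 of the 5 subunit genes were called lower, where 4.27% of all genes tested were. The log2 difference was −1.45 for *Nfkb1* (SE 0.10, adjusted p = 0.0134), −1.44 for *Nfkb2* (SE 0.15, adjusted p = 0.0215), −1.11 for *Rel* (SE 0.15, adjusted p = 0.0303), −0.54 for *Rela* (SE 0.06, adjusted p = 0.0236) and −0.48 for *Relb* (SE 0.10, adjusted p = 0.0766). Taken by replicate number, which the labels do not tie to an experiment, every subunit gene was lower in both. The differences were −1.58 and −1.33 for *Nfkb1* and −1.58 and −1.30 for *Nfkb2*. Of all genes tested, 49.7% had a mean difference below 0, and the share lower in both was not counted. Among the 15612 genes well above background on every array, 512 had a lower difference than *Nfkb1* and 524 than *Nfkb2*, against 2469 for *Rela* and 2774 for *Relb*.

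The calls in this comparison depended on the fit. In limma fits without untreated replicate 1, untreated replicate 2, LPS replicate 1 or LPS replicate 2 the number of subunit genes called lower was 0, and it was 1 without LPS+USP7i replicate 1 and 2 without LPS+USP7i replicate 2. A fit of only the 2 groups compared also called 0. Of all genes, 1485 were called lower in the fit of all arrays, 0 without either untreated array and in the fit of 2 groups (limma, at least 3673 at an unadjusted p under 0.05), 796 and 703 without LPS replicate 1 and 2, and 590 and 1193 without LPS+USP7i replicate 1 and 2. In each fit without 1 array and in that of 2 groups all 5 subunit genes were lower at an unadjusted p under 0.05. With the authors' deposited values and with a replicate block the count was 2, and *Nfkb1* and *Nfkb2* were the genes that passed. With a trended prior it was 3, without *Rel*. Over all alternatives the adjusted p ranged from 0.000439 to 0.0602 for *Nfkb1*, from 0.00222 to 0.0810 for *Nfkb2*, from 0.00891 to 0.158 for *Rel*, from 0.00731 to 0.105 for *Rela* and from 0.0531 to 0.236 for *Relb*. With normexp the difference of *Rel* was −0.43.

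The third comparison set inhibitor-treated cells against untreated cells. *Nfkb2* was 4.14-fold above its untreated level, *Nfkb1* 3.26-fold, *Relb* 3.25-fold and *Rela* 1.36-fold, and *Rel*, in the quantile-normalized values, was at least 2.21-fold above it. All 5 of the 5 subunit genes were called higher, where 6.16% of all genes tested (2144) were. That background was 12134 genes with 75th percentile scaling, 626 without untreated replicate 1, 479 without untreated replicate 2, 1343 without LPS replicate 1 and 1346 without LPS replicate 2. The log2 difference was 2.05 for *Nfkb2* (SE 0.15, adjusted p = 0.00806), 1.70 for *Nfkb1* (SE 0.10, adjusted p = 0.00636), 1.70 for *Relb* (SE 0.10, adjusted p = 0.00644) and 0.44 for *Rela* (SE 0.06, adjusted p = 0.0232). The call of *Rela* was the least secure. It was lost in 8 of 15 alternatives, with an adjusted p between 0.00675 and 0.137, among them each of the fits without 1 array. With 75th percentile scaling, which moved the median of all genes by 0.43 here, its difference was 0.85, and the difference of *Rel* was 0.52 with normexp and 1.24 in the deposited values against 2.95.

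**Figure D3:**
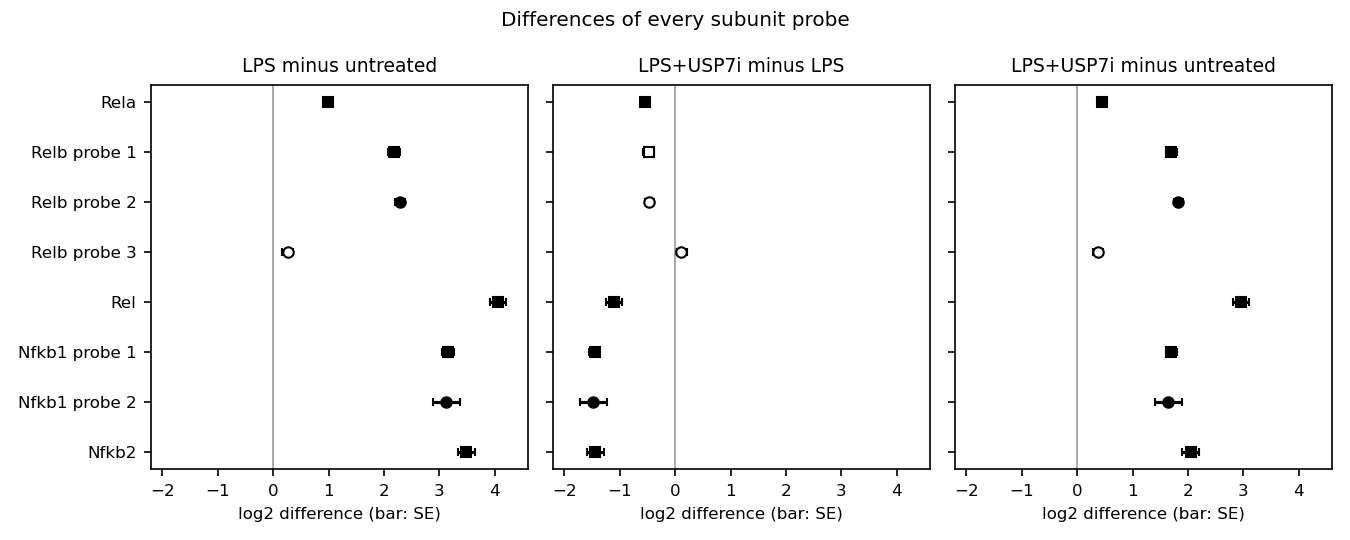
Log2 difference of each of the 8 subunit probes (x axis, bars are SE) in the 3 comparisons. Squares are the brightest probe of a gene and circles its other probes, filled where the adjusted p was under 0.05. All probes but *Relb* probe 3 are filled in the left and right panels, and *Nfkb1* and *Nfkb2* lie furthest to the left in the middle panel, between −1.48 and −1.44.

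The probes of 1 gene could be compared for *Nfkb1* and *Relb*. The *Nfkb1* probes differed from each other by 0.03 with LPS, 0.03 with the inhibitor and 0.06 against untreated cells on the log2 scale, and probe 2 was called in all 3 comparisons (adjusted p = 0.00590, 0.0461 and 0.0273). Its call with LPS held in all alternatives. Its call with the inhibitor was lost with a replicate block, in the fit of 2 groups and in each fit without 1 array except that without LPS+USP7i replicate 2 (adjusted p between 0.00462 and 0.160 over its alternatives). Against untreated cells it was lost with a replicate block, in the fit of 2 groups and in each fit without 1 untreated or LPS array (adjusted p between 0.00286 and 0.129). *Relb* probes 1 and 2 differed by −0.11, −0.01 and −0.12. These were small beside the differences between groups. *Relb* probe 2, like probe 1, did not pass with the inhibitor (adjusted p = 0.0553), although it did with normexp, with dim probes left out and with a trended prior (adjusted p between 0.0153 and 0.167 over its alternatives).

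*Relb* probe 3 stood apart. Its difference was 0.26 with LPS (SE 0.10, adjusted p = 0.172), 0.11 with the inhibitor (adjusted p = 0.601) and 0.37 against untreated cells (adjusted p = 0.0930), none of which passed. Against untreated cells it passed with normexp (0.33, adjusted p between 0.0383 and 0.244 over its alternatives). With LPS its difference was 1.92 smaller than that of probe 1. A mean over all 3 probes gave *Relb* a difference of 1.58 with LPS and −0.28 with the inhibitor. Which transcripts these probes detect was not tested.

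The ratio of 2 subunits on an array also holds the brightness of their probes, so only its change between groups was read. As log2 ratios minus the untreated mean, *Nfkb1* over *Rela* read 2.15 and 2.19 (LPS) and 1.17 and 1.35 (LPS+USP7i), and *Nfkb2* over *Rela* read 2.62 and 2.39 and then 1.63 and 1.58. *Relb* over *Rela* read 1.09 and 1.30 and then 1.21 and 1.31. The precursor genes thus stood lower against *Rela* on both inhibitor arrays than on both LPS arrays, while the values of *Relb* over *Rela* overlapped. The mean difference with the inhibitor was −0.91 for *Nfkb1* over *Rela*, −0.89 for *Nfkb2* over *Rela* and 0.06 for *Relb* over *Rela*. For *Nfkb2* over *Nfkb1* it was 0.33 with LPS and 0.01 with the inhibitor, the latter with overlapping groups. *Nfkb1* over *Relb* read 1.06 and 0.89 (LPS) and −0.04 and 0.04 (LPS+USP7i), where it overlapped its values in untreated cells.

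With 2 arrays per group the smallest two-sided p of an exact permutation test is 0.333. Every ratio change without overlap had that p, and 0.385 after Benjamini-Hochberg adjustment over the 10 pairs and 3 comparisons. Ratios with *Rel* depended on the processing. The difference of *Rel* over *Rela* with LPS was 3.08 after quantile normalization, 0.93 in the deposited values and −0.08 with normexp, and with the inhibitor it was −0.57 and, with normexp, 0.13. *Rel* over *Relb* likewise was 1.88 with LPS but −0.16 in the deposited values and −1.15 with normexp, and *Nfkb1* over *Rel* was −0.91 but 1.14 and 2.07. Ratios without *Rel* were steadier, and that of *Nfkb2* over *Rela* lay between 2.26 and 2.63 with LPS and between −1.01 and −0.78 with the inhibitor over 11 alternatives.

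**Figure D4:**
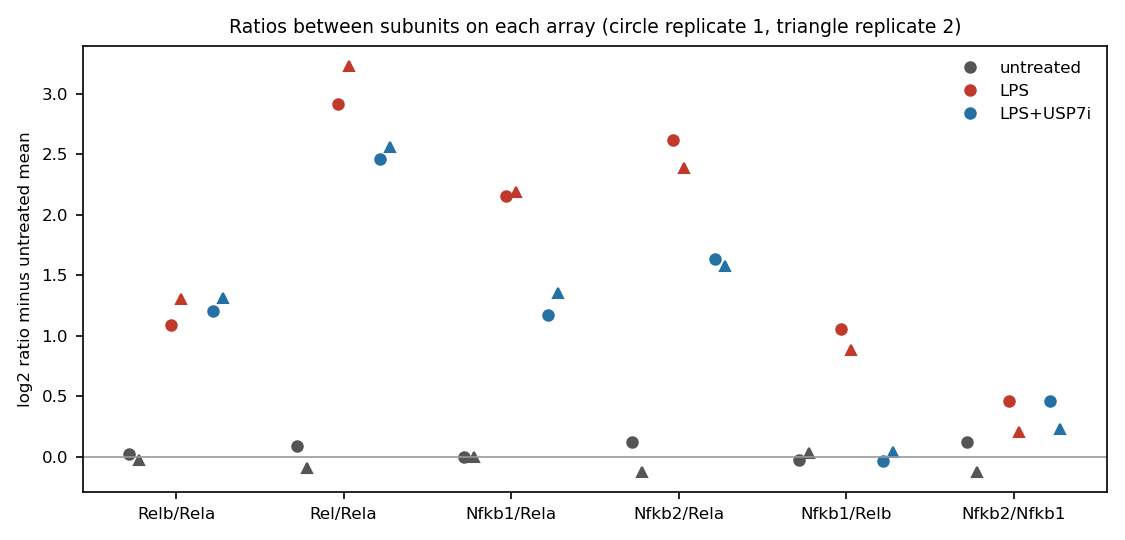
Log2 ratio between subunits on each array minus its mean in untreated cells (y axis), for 6 pairs (x axis), with circles for replicate 1 and triangles for replicate 2. The inhibitor arrays lie below the LPS arrays for *Nfkb1* over *Rela* (1.17 and 1.35 against 2.15 and 2.19) and overlap them for *Relb* over *Rela*.

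The other genes of the pathway were taken from 5 lists of 29 genes, all found on the array. With LPS 16 were called higher and 6 lower, with a median log2 difference of 1.11, where 7.98% of all genes tested were higher and 12.8% lower and their median was 0.0016. With the inhibitor 3 were called higher and 6 lower (median −0.30), where 5.52% and 4.27% of all genes were. In LPS+USP7i against untreated cells 16 were higher and 3 lower (median 0.90), where 6.16% and 8.71% were. The counts against untreated cells were 9 and 0 without untreated replicate 1 and 6 and 0 without untreated replicate 2, where limma gave 4 and 5 lower at an unadjusted p under 0.05. The 6 called lower with LPS were 2 without either untreated array and 3 without either LPS array. With the inhibitor the numbers higher and lower were 5 and 13 with normexp, 5 and 12 with dim probes left out, 3 and 4 with a replicate block, and 0 and 0 in the limma fit of 2 groups, where 5 and 14 had an unadjusted p under 0.05. The number of all genes called lower moved too, from 1485 to 2373 with normexp, 2362 with dim probes left out and 1124 with a replicate block. In limma fits without 1 array the number called with the inhibitor in either direction was 0 without untreated replicate 1 or 2, 2 without LPS replicate 1, 4 without LPS replicate 2, 3 without LPS+USP7i replicate 1 and 8 without LPS+USP7i replicate 2. In these fits without 1 array the median log2 difference of the 29 genes with the inhibitor lay between −0.37 and −0.24. That of all genes lay between −0.0077 and 0.012.

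The IκB proteins hold NF-κB dimers in the cytoplasm or, as Bcl3 and IκBζ do, act with them in the nucleus. All 6 IκB genes rose with LPS in the fit of all arrays, *Nfkbiz* by 5.53, *Nfkbie* by 4.35, *Nfkbia* by 3.68, *Nfkbib* by 2.68, *Bcl3* by 2.20 and *Nfkbid* by 0.77 on the log2 scale. The call of *Nfkbid* was lost without either untreated array, without either LPS array and with a replicate block (adjusted p between 0.00331 and 0.101 over its alternatives). With the inhibitor only *Bcl3*, whose product binds p50 and p52 homodimers, was called lower (−0.98, adjusted p = 0.0353), and this call was lost in each fit without 1 array, with a replicate block and in the fit of 2 groups (adjusted p between 0.00422 and 0.126 over its alternatives). *Nfkbia*, which encodes IκBα, read 13.86 and 13.49 (untreated), 17.33 and 17.39 (LPS) and 17.13 and 17.18 (LPS+USP7i), a difference of −0.21 that did not pass (adjusted p = 0.548). *Nfkbiz*, at −1.47, came close to the threshold (adjusted p = 0.0545). With 75th percentile scaling, normexp and the deposited values 3, 4 and 3 of the 6 were called lower.

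Among the IKK and related kinases, *Ikbkb* rose with LPS by 1.11 and fell by 1.29 with the inhibitor (adjusted p = 0.0120). *Ikbke* rose by 2.61 and fell by 1.64 (adjusted p = 0.0289), and *Tbk1* rose by 0.67, a call lost without either untreated array and in the deposited values. *Chuk*, which encodes IKKα, had differences of 0.03 and −0.13 and passed in neither comparison. *Ikbkg*, which encodes the scaffold NEMO, had a difference of 1.16 with the inhibitor that did not pass on its brightest probe (adjusted p = 0.0542), whereas its other probe was called higher with LPS and with the inhibitor.

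The non-canonical pathway leads from the kinase NIK, encoded by *Map3k14*, to processing of p100, and its genes split. *Map3k14* fell by 2.61 with LPS and was higher by 1.90 with the inhibitor (adjusted p = 0.0183), although its other probe passed in neither comparison. *Traf3*, an adaptor through which NIK is degraded, fell by 0.48 with LPS, and was higher by 1.49 with the inhibitor (adjusted p = 0.0126). *Birc2* and *Birc3*, which encode the ubiquitin ligases of the same complex, went the other way. The call of *Traf3* with LPS was made in 4 of 14 alternatives. It was lost in each fit without 1 array, with a replicate block, in the fit of 2 groups and in the deposited values. With 75th percentile scaling it was lost too, at a difference of −0.31. *Birc2* and *Birc3* rose by 1.99 and 2.79 with LPS, and *Birc2* fell by 1.55 and *Birc3* fell by 1.27 with the inhibitor (adjusted p = 0.0181 and 0.0225). These calls of *Birc2* and *Birc3* with the inhibitor were made in 9 and 7 of 14 alternatives. That of *Birc3* was lost with a replicate block, and both were lost in the fit of 2 groups. The other probe of *Birc3* was not called with the inhibitor. *Traf2* rose by 1.60 with LPS, and its difference with the inhibitor was −0.30 (adjusted p = 0.483), but its other probe was called lower.

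Genes that limit the signal by editing ubiquitin were mixed. *Tnfaip3*, which encodes A20, rose by 4.89 with LPS and its difference with the inhibitor was −0.39 (adjusted p = 0.0772). *Tnip1*, an A20 partner, rose by 1.89 and fell by 0.62 (adjusted p = 0.0267), the latter not on its other probe. *Tnip3* rose by 2.78, and its difference with the inhibitor was −0.44 (adjusted p = 0.246), but its other probe was called lower. *Otulin*, a deubiquitinase of linear chains, fell by 1.03 with LPS and was higher by 0.94 with the inhibitor (adjusted p = 0.0212), and *Cyld* fell by 0.99 with LPS. The call of *Otulin* with LPS was lost without either untreated array and its difference was −0.61 with 75th percentile scaling, and the call of *Cyld* was lost without either untreated array or either LPS array and not made on its other probe.

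In the list of nuclear regulators limma called 0 of 7 genes, by the brightest probe of each, in either direction with the inhibitor. At an unadjusted p under 0.05, 2 were lower. The number called lower was 2 with normexp and with dim probes left out, and 1 in the deposited values and without either LPS+USP7i array. *Socs1*, part of a ligase that degrades p65, rose by 7.45 with LPS and had a difference of −1.72 with the inhibitor (adjusted p = 0.0785). *Cul2* had differences of 1.18 with LPS (adjusted p = 0.0584) and −0.99 with the inhibitor (adjusted p = 0.120) on its brightest probe. Of its 3 other probes, 2 were called higher with LPS and 1 lower with the inhibitor. *Usp7*, which encodes the target of the inhibitor, had differences of 0.44 with LPS (adjusted p = 0.104) and −0.14 with the inhibitor (adjusted p = 0.627). *Ing4* fell by 1.94 with LPS, with no call on its other probe, and *Pdlim2*, which encodes a ligase for nuclear p65, fell by 1.38, the latter a call lost without either untreated array or either LPS array. Over the alternatives no call named in these lists changed sign, but each of the 9 calls with the inhibitor was lost in at least 3 of 14. Those of *Ikbkb* and *Traf3* were made in 11, those of *Otulin* and *Birc2* in 9 and that of *Map3k14* in 8. Those of *Ikbke*, *Birc3* and *Tnip1* were made in 7 and that of *Bcl3* in 6.

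**Figure D5:**
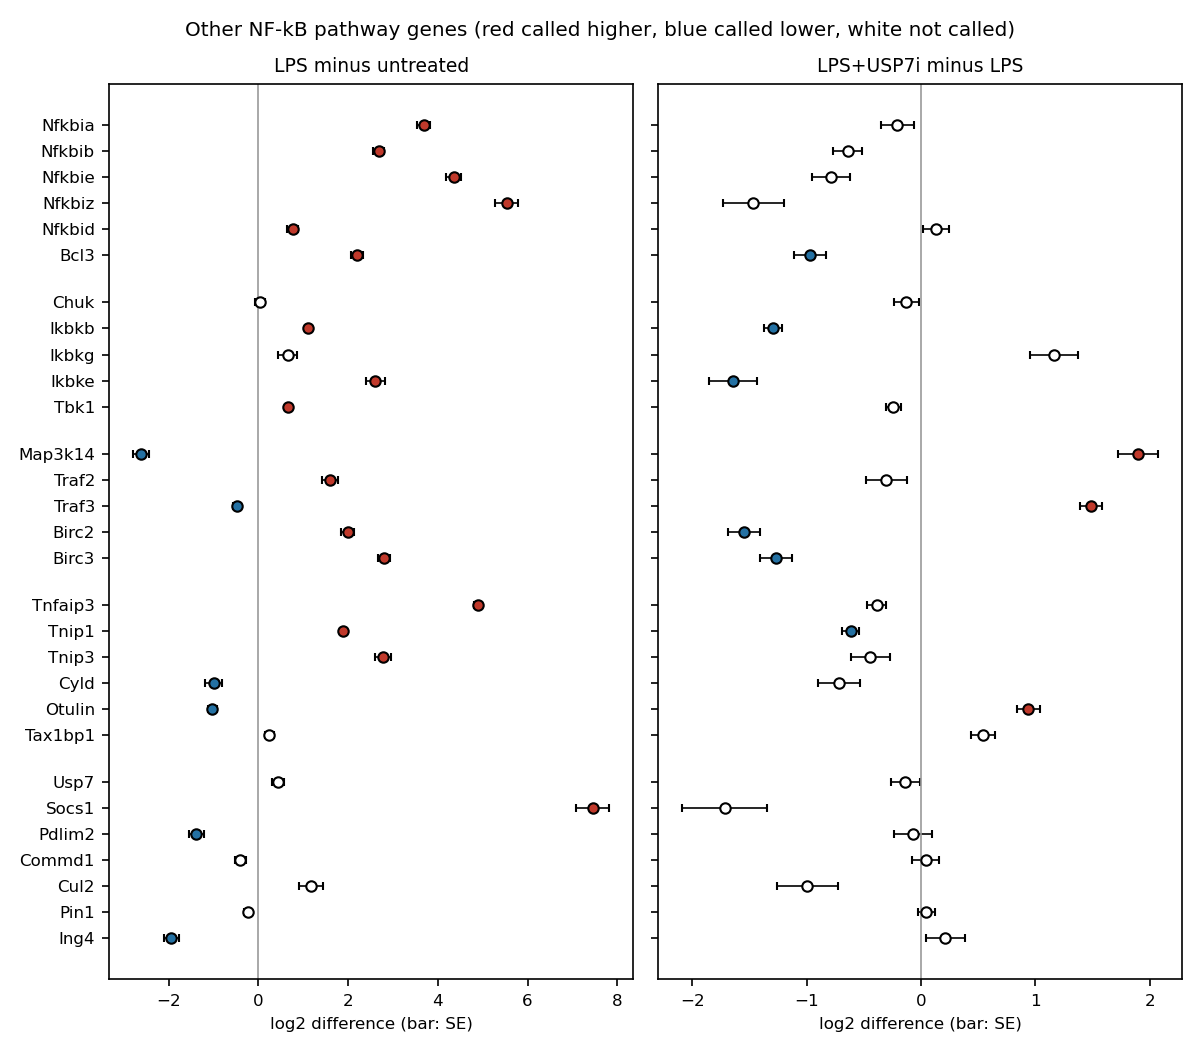
Log2 difference (x axis, bars are SE) of 29 other NF-κB pathway genes, grouped by list, in LPS minus untreated (left) and LPS+USP7i minus LPS (right). Red was called higher, blue lower and white neither. All 6 IκB genes are red on the left and *Bcl3* alone of them is blue on the right, and *Map3k14*, *Traf3* and *Otulin* are blue on the left and red on the right.

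The genes closest to each subunit were sought among 11652 named genes well above background on all 6 arrays, by the root mean square difference of the centered log2 values. *Rela* was matched by *Nodal* (0.035) and *Slc31a1* (0.041), a copper transporter gene with differences of 0.97 with LPS and −0.51 with the inhibitor. *Relb* was matched by *Plagl2* (0.10) and *Trex1* (0.11), which encodes a DNA exonuclease. *Rel* was matched by *Peli1* (0.19) and *Tlr2* (0.20), which encode a ubiquitin ligase and a receptor of TLR signaling, but this match rests on untreated values of *Rel* that were not well above background. *Nfkb1* was matched by *Helz2* (0.10) and *Mier3* (0.12), and *Nfkb2* by *Exoc3l4* (0.12) and *Slfn1* (0.15). *Tlr2*, chosen for its likeness to *Rel* on these same arrays, read 11.88 and 11.55 (untreated), 15.37 and 15.34 (LPS) and 14.24 and 14.52 (LPS+USP7i). With 3 groups of 2 arrays many genes can share such a pattern, and likeness was not tested.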

How the data were processed

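Gene expression was measured on 6 one-color Agilent mouse arrays. The authors deposited scanner files whose spot values are intensity after background correction by Agilent Feature Extraction 10.7.3.1, and a deposited table of log2 values normalized between arrays. Here log2 processed signal was quantile-normalized, outlier spots were dropped and the remaining spots of each probe averaged. A linear model over the 3 groups was fitted with limma 3.58.1 in R 4.3.3 (3 residual degrees of freedom), and p values were adjusted by Benjamini-Hochberg over 55680 probes. The brightest probe stood for a gene in counts. Every subunit probe and every gene of the pathway lists could be named, and the 2 closest genes were named for each subunit. The members and lists were chosen with earlier results of these data known. Alternatives were 75th percentile scaling, normexp with an offset of 50, the deposited log2 values, leaving out dim probes, keeping outlier spots, a trended prior, fits of 2 groups, a replicate block, the mean of all probes of a gene, and leaving out each array. Spots well above background numbered 27467 and 27126 (untreated), 25223 and 25002 (LPS) and 26415 and 25290 (LPS+USP7i). Over 20705 probes the SD of the log2 difference between replicates was 0.29, 0.34 and 0.40 in these groups.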

Additional observations from a re-analysis of the deposited data

How the results depend on the processing

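All 5 subunit genes stayed higher with LPS in all 15 alternatives, and 4 or 5 of 5 were higher in LPS+USP7i than in untreated cells. The number called lower with the inhibitor was 4 after quantile normalization and a fit of all arrays. It was 3 with a trended prior, 2 with the authors' deposited log2 values, 2 with a replicate block and 0 in fits of only the 2 groups compared, where limma tested each probe with fewer arrays, and between 0 and 2 with 1 array left out, where a lone array is assumed to vary like the others. All 5 subunit genes were lower at an unadjusted p under 0.05 in those fits, except in the deposited values, where 4 were. The cause of the lost calls was not tested for any of these alternatives. Over single probes 296 values kept direction and side of the threshold, 51 lost the call and 4 gained it, with 0 changes of direction. Of the ratio changes, 281 moved by less than 1 SD and 49 by more, which includes those of the dim *Rel* probe.

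Of all genes, 2775 were higher with LPS after quantile normalization and 12092 with 75th percentile scaling. Of all genes, 1485 were lower with the inhibitor in the fit of all arrays and 0 in fits of the 2 groups (limma), although 3674 were at an unadjusted p under 0.05. The labels do not say whether equal replicate numbers mark the same experiment. Replicate number also matched the position across the slide, 1 for every replicate 1 and 2 for every replicate 2. Deviations from the group mean correlated between groups over 20705 probes, with 0.47 for untreated and LPS, 0.40 for untreated and LPS+USP7i and 0.42 for LPS and LPS+USP7i. Signal over background limits *Rel* alone among the subunits.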
